A study of Homo sapiens with 16 samples.

Results

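The comparison described here set SK-N-BE(2) cells transfected with the c-IDR form of HIF-2α against untransfected cells of the same line. It took in 8 of the 16 RNA-seq libraries of the series, 4 for each of these groups, and was read across all expressed genes except EPAS1, the gene that was transfected and that served only to check the labels. All 16 libraries came from SK-N-BE(2), a line derived from human neuroblastoma in which MYCN is amplified. The untransfected group is labelled WT, and the c-IDR group is named cIDR below. The other 8 libraries, 4 from cells given full-length HIF-2α (FL) and 4 from cells given the N-CTAD form (NCTAD), were used for the estimate of spread and for a direct comparison of the constructs. The design text writes the shortened forms as ΔN-CTAD and Δc-IDR, while the labels of the samples omit the Δ, and neither source names the residues concerned. All cells grew in 21% oxygen with 10% serum, so every group was at atmospheric oxygen. The labels name no vector, no time after transfection and no empty-vector control, so that transfection as such and the c-IDR form cannot be told apart in this comparison. Each group held replicates 1 to 4, and the labels give these numbers as batches shared by same-numbered libraries. Nothing else in the labels says that replicates were separate cultures, so p-values measure the spread between these libraries only.

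HIF-2α is the oxygen-regulated subunit of a transcription factor that pairs with ARNT and binds DNA at hypoxia response elements. With oxygen present, prolyl hydroxylases of the EGLN family mark the protein for breakdown by way of VHL. A second hydroxylase, HIF1AN, acts on the C-terminal transactivation domain (C-TAD) and blocks its contact with the coactivators p300 and CBP. IDR stands for an intrinsically disordered region, a stretch of protein without a fixed fold. In sympathoadrenal cells and their tumours HIF-2α is known for its link to catecholamine-producing tissue, and neuroblastoma is a tumour of that lineage.

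The 8 libraries held 38.6 to 55.3 M (mega) estimated counts each. EPAS1 measured 13.0, 28.1, 17.3 and 14.3 counts per 1 M counts (CPM) in WT batches 1 to 4 and 4078, 2189, 5852 and 5816 CPM in the cIDR libraries, which matched the labels in every library. Among the cIDR libraries that of batch 2 had the lowest EPAS1. Endogenous and transfected EPAS1 reads are counted together here. The line's lineage markers were all present: the summed level of 11 sympathoadrenal markers, among them HAND2, GATA3 and MYCN, was 7930 to 8871 CPM in WT and 8514 to 9267 CPM in cIDR. Summed markers of other cell types were 0.125 to 1.27 CPM in WT and 0.542 to 2.17 CPM in cIDR for 6 endothelial genes (TEK and EMCN at 0 in all 8 libraries), and 0.250 to 0.507 against 0.325 to 0.789 CPM for 5 leukocyte genes. For 5 epithelial genes they were 7.22 to 9.65 against 8.59 to 10.5 CPM, and for 5 Schwann cell genes 4.22 to 5.96 against 5.01 to 6.69 CPM. The 6 fibroblast genes summed to 339 to 423 CPM in WT and 330 to 395 CPM in cIDR (COL1A2 at 0 in all 8 libraries), with THY1 the largest part. In bulk RNA, more cells of a type and more RNA per cell cannot be told apart.

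Of the genes that respond to low oxygen, some rose in cells given the c-IDR form against untransfected cells and most of those listed did not pass the test. Those that rose included the repressor gene BHLHE40 (1.11 ± 0.078 on the log2 scale, SE), the glycolytic genes PFKP (0.89 ± 0.085) and PFKFB4 (0.67 ± 0.069), the angiogenic factor VEGFA (0.89 ± 0.11) and the mitochondrial subunit gene COX4I2 (2.76 ± 0.37). The catecholamine genes TH, DBH and SLC18A1 and the peptide hormone gene CRH (1.45 ± 0.16) rose as well, and the phosphatase subunit gene PPP2R2B fell (-1.17 ± 0.14). Of 19529 genes tested, 94 (0.481%) differed between cIDR and WT at a Benjamini-Hochberg adjusted p under 0.05 by the quasi-likelihood test of edgeR with batch as a term in the model. The change was mostly upward: 88 genes rose (0.451% of tested genes) and 6 fell (0.0307%). Among the 300 tested members of 26 gene lists drawn up for this line and this factor, 32 rose and none fell (10.7% of list members), and 62 called genes lay outside the lists. The lists were drawn up with earlier results of these data known, so this share is a description and no sign of enrichment. The median log2 fold change of the 88 risen genes was 0.87, against 0.0079 over all tested genes, with 20 under 0.5, 31 from 0.5 to 1, 22 from 1 to 2 and 15 at 2 or more. Each of the 88 was higher in cIDR in 4 of 4 batches, as were 10.6% of all tested genes, and each of the 6 was lower in 4 of 4 batches, as were 7.16%. These genes were called on differences within batches, so the agreement between batches describes the calls and is no separate support for them.

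The result depended on comparing libraries within a batch. With the batch left out of the model, 1 gene was called (0.00512%) in place of 94, and 267 genes in place of 1063 had an unadjusted p under 0.05. Levels of the risen genes were high in batch 2 in both groups: the WT library of batch 2 was the highest of the 4 WT libraries for 77 of the 88 (87.5%), against 38.7% of all tested genes. For 50 of the 88 it exceeded all 3 cIDR libraries of the other batches, against 37.98% of all tested genes. Only 19 of the 88 and 4 of the 6 fallen genes had groups that did not overlap, where 1.46% of all tested genes did. The median difference of the 88 between cIDR and WT within batches 1 to 4 was 1.02, 0.82, 0.75 and 0.80 on the log2 scale, which describes genes that were chosen for such a difference. What set batch 2 apart was not tested. Of the 94 genes, 41 were called when each of the 8 libraries was left out in turn, 23 also when each of the 4 batches was left out, and 37 by limma on log2 TPM with both pseudocounts. In a fit of the 8 libraries alone, without those of FL and NCTAD, 75 of the 94 were called.

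**Figure D1:**
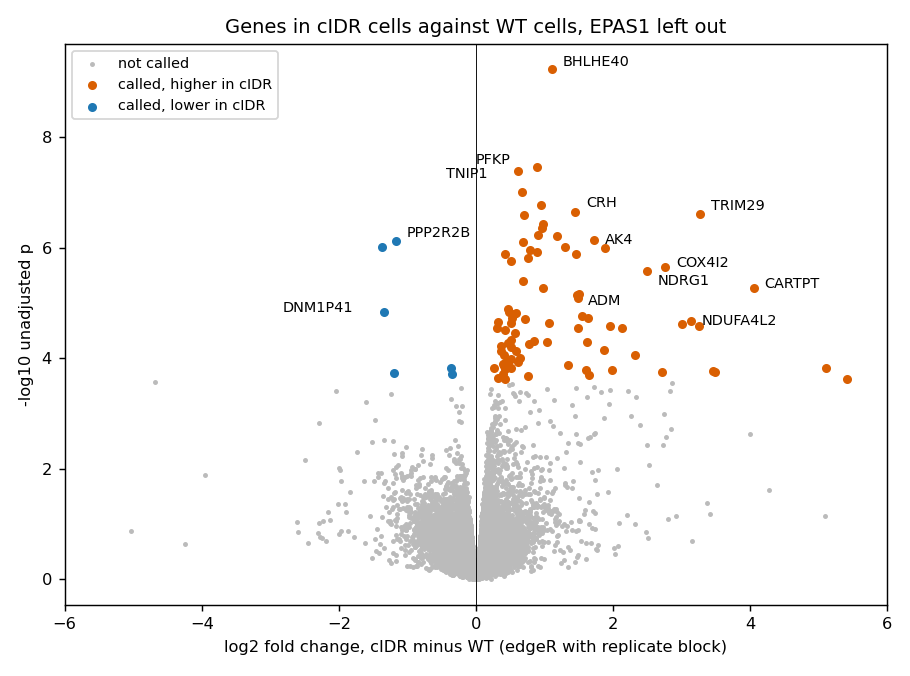
Log2 fold change of cIDR over WT (x axis) against the minus log10 of the unadjusted p by edgeR (y axis) for the tested genes within the axis limits, with EPAS1 left out. Coloured points are the 88 genes that rose and the 6 that fell; 1 called gene at a log2 fold change of 9.31 lies beyond the axis limit of 6.

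**Figure D2:**
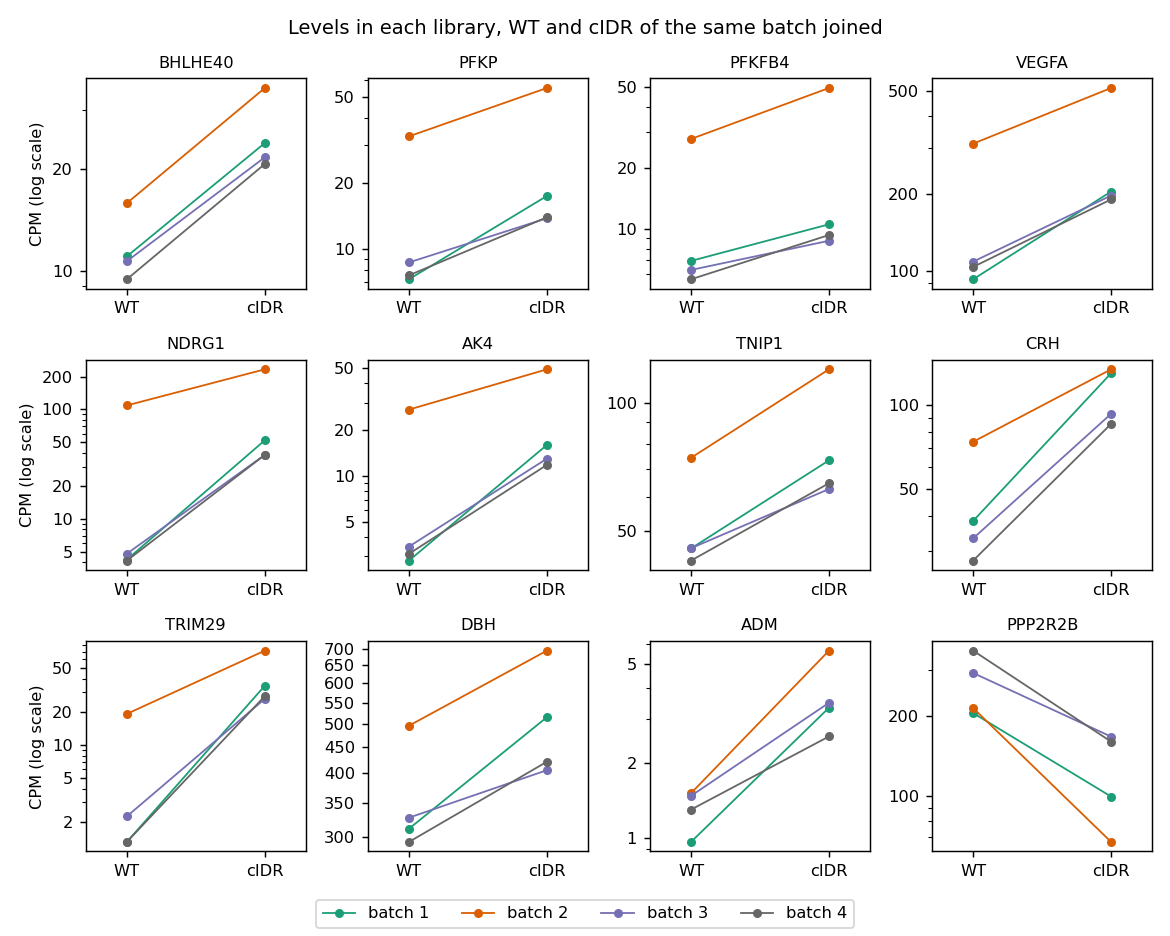
CPM (log10 axis) of selected genes in each library of WT and cIDR, with lines joining libraries of the same batch. All lines rise from WT to cIDR for the risen genes shown, and batch 2 is the top line in each of the 11 risen genes. PPP2R2B falls in every batch.

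HIF dimers bind DNA at ACGTG or GCGTG, the core of the hypoxia response element. Promoters of the risen genes held at least 1 of the forms about as often as those of all tested genes. They held ACGTG more often and GCGTG slightly less often, differences that were not tested. RefSeq promoters (GRCh38.p14, 250 bases before to 50 after the start) were matched by symbol for 59 of the 88, and 40 of these (67.8%) held ACGTG or GCGTG on either strand, against 63.0% of the 11846 promoters of tested genes. ACGTG alone was present in 23 (38.98% against 26.4%) and GCGTG in 28 (47.5% against 50.6%). These are matches to letters, which were not tested as binding sites. The windows of 5 risen genes, chosen because they hold a core, are printed to show where the letters lie, 5′ to 3′ on the strand of the gene, with the letters ACGTG or GCGTG, or their reverse complements, in capitals. BHLHE40 lies at chr3:4979187-4979486 (plus strand), PFKFB4 at chr3:48556754-48557053 (minus strand), AK4 at chr1:65147302-65147601 (plus strand), KDM3A at chr2:86441121-86441420 (plus strand) and ADM at chr11:10304823-10305122 (plus strand).
BHLHE40: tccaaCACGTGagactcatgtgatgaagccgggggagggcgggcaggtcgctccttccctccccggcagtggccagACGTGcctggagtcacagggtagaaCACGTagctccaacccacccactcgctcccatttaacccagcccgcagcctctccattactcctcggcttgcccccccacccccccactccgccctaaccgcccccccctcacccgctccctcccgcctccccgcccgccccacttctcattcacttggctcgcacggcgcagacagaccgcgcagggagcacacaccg
PFKFB4: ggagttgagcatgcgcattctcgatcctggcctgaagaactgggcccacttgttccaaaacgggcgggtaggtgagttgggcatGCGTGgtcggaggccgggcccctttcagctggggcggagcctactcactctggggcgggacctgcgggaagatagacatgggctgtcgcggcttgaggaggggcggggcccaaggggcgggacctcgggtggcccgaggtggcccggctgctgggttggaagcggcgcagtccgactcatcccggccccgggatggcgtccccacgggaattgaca
AK4: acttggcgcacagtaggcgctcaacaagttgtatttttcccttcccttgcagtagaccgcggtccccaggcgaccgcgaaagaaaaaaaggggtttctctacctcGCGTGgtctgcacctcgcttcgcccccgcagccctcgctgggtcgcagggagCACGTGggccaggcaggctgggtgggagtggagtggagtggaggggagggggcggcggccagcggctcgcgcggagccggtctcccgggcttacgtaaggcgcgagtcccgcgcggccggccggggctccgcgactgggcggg
KDM3A: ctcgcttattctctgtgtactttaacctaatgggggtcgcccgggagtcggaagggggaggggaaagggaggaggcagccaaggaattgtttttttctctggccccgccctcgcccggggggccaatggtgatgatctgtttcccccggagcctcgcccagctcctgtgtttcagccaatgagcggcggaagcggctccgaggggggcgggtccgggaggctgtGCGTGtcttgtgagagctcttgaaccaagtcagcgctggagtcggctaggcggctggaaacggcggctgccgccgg
ADM: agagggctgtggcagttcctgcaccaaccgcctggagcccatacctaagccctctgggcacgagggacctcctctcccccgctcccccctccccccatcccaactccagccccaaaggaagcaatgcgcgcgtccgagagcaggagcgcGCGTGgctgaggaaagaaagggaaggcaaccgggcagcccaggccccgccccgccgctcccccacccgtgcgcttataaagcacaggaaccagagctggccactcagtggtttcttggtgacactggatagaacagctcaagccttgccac
BHLHE40 held 4 such cores, of which an overlapping pair forms the palindrome CACGTG, and AK4 held 3, again with 1 CACGTG. PFKFB4, KDM3A and ADM held 1 GCGTG each. The promoters of PFKP and TNIP1, which rose with small p-values, held none in this window.

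BHLHE40, which encodes a basic helix-loop-helix repressor induced in hypoxia, had the smallest p of the genes with a symbol. Its level was 11.02, 15.9, 10.7 and 9.42 CPM in WT batches 1 to 4 and 23.98, 34.98, 21.7 and 20.8 CPM in cIDR. No WT library reached the lowest cIDR library. The log2 fold change was 1.11 ± 0.078 (SE; edgeR adjusted p 5.79e-06), and it was called without each of the 8 libraries and without each of the 4 batches (adjusted p at most 0.00105). Of the 22 commonly shared HIF targets on the same list, 7 rose, with a list median of 0.31, and 16 were higher in 4 of 4 batches. AK4, a mitochondrial adenylate kinase, was 2.82, 27.01, 3.47 and 3.12 CPM in WT and 15.9, 49.4, 12.97 and 11.8 in cIDR, a log2 fold change of 1.73 ± 0.21 (adjusted p 0.000908). NDRG1, an N-myc downstream regulated gene that responds to stress and low oxygen, was 4.24, 109, 4.801 and 4.15 CPM in WT and 52.3, 233, 38.4 and 38.4 in cIDR (2.49 ± 0.34, adjusted p 0.00184). Within each batch both genes were higher in cIDR, while the WT library of batch 2 lay above the cIDR libraries of batches 1, 3 and 4. AK4 was called without each library and each batch, and NDRG1 was lost without batch 3 (0.0643). The log2 fold change of NDRG1 was 3.20 without WT replicate 2 and 3.28 without batch 2. PPFIA4 (liprin-α4) rose by 1.54 ± 0.25, the zinc finger gene ZNF395 by 0.52 ± 0.085, DDIT4, an inhibitor of mTORC1, by 0.31 ± 0.052, and the fucosyltransferase gene FUT11 by 0.39 ± 0.075. These calls varied in firmness: PPFIA4 was called without each library (adjusted p at most 0.0441) but lost without batches 1, 2 or 3 (up to 0.129), ZNF395 was lost without WT replicate 1 or WT replicate 2 (adjusted p up to 0.0690), DDIT4 was lost in 5 of the 8 cases (up to 0.0772) and FUT11 in 6 of 8 (up to 0.184). ZNF395, DDIT4 and FUT11 were also lost without 3 or 4 of the 4 batches, and limma on TPM called none of these 4 genes. The other 15 list members did not pass the test, among them MIR210HG at 1.63 ± 0.37 (adjusted p 0.0823), SPAG4 at 0.85 ± 0.20 and VLDLR at 0.036 ± 0.060.

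Genes of glucose uptake and glycolysis were the list with most called members beside the shared targets: 7 of 23 rose, none fell, the median was 0.18 and 18 of 23 were higher in 4 of 4 batches. The smallest p-values were those of a phosphofructokinase and of an enzyme that regulates this step. PFKP, the platelet-type phosphofructokinase, was 7.22, 33.01, 8.64 and 7.53 CPM in WT and 17.5, 55.2, 13.8 and 13.95 in cIDR (0.89 ± 0.085, adjusted p 0.000161). PFKFB4, a bifunctional enzyme that sets the level of a fructose bisphosphate activator of phosphofructokinase, was 6.95, 27.7, 6.27 and 5.64 CPM in WT and 10.5, 49.5, 8.74 and 9.32 in cIDR (0.67 ± 0.069, adjusted p 0.000314). In both genes every batch rose and the WT library of batch 2 exceeded 3 of the 4 cIDR libraries, so the groups overlapped. Both were called without each library and without each batch. PFKL, the liver-type isoform, rose by 0.36 ± 0.067, the aldolases ALDOC and ALDOA by 0.48 ± 0.075 and 0.32 ± 0.053, the glucose transporter gene SLC2A3 by 0.77 ± 0.14 and hexokinase 2 (HK2) by 0.40 ± 0.081. ALDOC was called without each library (adjusted p at most 0.04996), but it was lost without batch 2 (0.128) or batch 4 and with TPM values (0.141 to 0.146). The calls of ALDOA, PFKL, SLC2A3 and HK2 were lost without 4, 5, 7 and 6 of the 8 libraries in turn, with adjusted p up to 0.0663, 0.162, 0.136 and 0.264, and each was lost without 3 or 4 of the 4 batches and with TPM values. The remaining 16 members did not pass, among them SLC2A1 at 0.57 ± 0.13 (adjusted p 0.0787), PGK1 at 0.17 ± 0.066, GAPDH at 0.16 ± 0.061, LDHA at 0.089 ± 0.065 and HK1 at 0.00090 ± 0.054. In glycogen metabolism 1 of 10 genes rose, the branching enzyme GBE1 (0.37 ± 0.066, adjusted p 0.0186), lost without 6 of the 8 libraries in turn (up to 0.127) and without 3 of the 4 batches (up to 0.294).

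Among 12 genes of the mitochondrial response that lowers oxygen use, 3 rose with a list median of 0.18. NDUFA4L2, a paralogue of a respiratory chain subunit that is strongly HIF-induced, had the largest fold. It was 0.104, 63.4, 0.531 and 0.549 CPM in WT and 16.8, 143, 9.23 and 8.02 in cIDR, with a log2 fold change of 3.13 ± 0.51 (adjusted p 0.00953). Its WT library of batch 2 stood far above the other 3 WT libraries and above all cIDR libraries but that of batch 2. Without batch 2 the log2 fold change was 4.82 (adjusted p 0.000690), and without batches 1, 3 or 4 the call was lost (up to 0.148). COX4I2, the alternative subunit of cytochrome c oxidase used in low oxygen, was 0.355, 3.05, 0.121 and 0.2196 CPM in WT and 4.17, 9.08, 2.22 and 2.33 in cIDR (2.76 ± 0.37, adjusted p 0.00162). It was called without each of the 8 libraries and lost without batch 1 (0.0570), and without batch 2 its log2 fold change was 3.64. PDK1, the kinase that switches off pyruvate dehydrogenase, rose by 0.64 ± 0.12, a call lost in 6 of 8 cases and with an adjusted p of 1.00 without batch 2. The main subunit COX4I1 measured 0.052 ± 0.067, and the mitophagy receptors BNIP3 and BNIP3L 0.27 ± 0.077 and 0.25 ± 0.081, none of them called. Of 4 tested genes of acid handling none passed, with carbonic anhydrase 12 (CA12) nearest at 1.95 ± 0.42 (adjusted p 0.0694).

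Among secreted signals of blood vessel growth and stress and their receptors, 4 of 17 tested genes rose, with a median of 0.22. VEGFA, the main angiogenic factor, was 93.1, 312, 109 and 104 CPM in WT and 204, 513, 196 and 189.8 in cIDR (0.89 ± 0.11, adjusted p 0.00106). STC1, a secreted glycoprotein hormone, was 33.1, 97.3, 37.6 and 35.5 CPM in WT and 76.1, 174, 65.2 and 61.6 in cIDR (0.91 ± 0.11, adjusted p 0.000845). Both were higher in every batch, with the WT library of batch 2 above the cIDR libraries of the other 3 batches. ADM, the vasodilator adrenomedullin, was 0.9602, 1.51, 1.47 and 1.295 CPM in WT and 3.33, 5.65, 3.49 and 2.55 in cIDR, so that the groups did not overlap (1.47 ± 0.22, adjusted p 0.00417). ANGPTL4, a secreted inhibitor of lipoprotein lipase, was 0.0626, 2.79, 0.603 and 0.725 CPM in WT and 1.54, 7.94, 1.76 and 2.12 in cIDR (1.96 ± 0.32, adjusted p 0.0102). Its call was lost without WT replicate 2 (adjusted p 0.0673), without batches 2, 3 or 4 (up to 0.128) and with 1 of the 2 TPM fits (0.117). STC1, VEGFA and ADM were called without each of the 8 libraries, while ADM was lost without batch 1 or batch 2 (up to 0.0859) and VEGFA without batch 1 (0.0528). Members that did not pass included ANGPT2 at -0.38 ± 0.18 and the VEGF receptor gene FLT1 at 0.43 ± 0.22. Of 10 tested enzymes that modify collagen 3 rose (median 0.34), and 9 were higher in 4 of 4 batches. PLOD2, a lysyl hydroxylase, was 0.167, 0.931, 0.458 and 0.483 CPM in WT and 0.947, 2.68, 1.16 and 1.31 in cIDR without overlap (1.64 ± 0.26, adjusted p 0.00876), a call lost without WT replicate 2 (0.0584) and without batch 2 (0.186) or batch 4. The lysyl oxidase LOXL3 rose by 0.59 ± 0.093 and was called without each library (at most 0.0473), but it was lost without batch 2 (0.229) and with TPM values (0.359 to 0.362). The prolyl hydroxylase P4HA1 rose by 0.43 ± 0.072 and was lost in 4 of 8 cases (up to 0.0930), without batches 2, 3 or 4 (up to 0.251) and with TPM values (0.435 to 0.449).

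The oxygen-sensing machinery itself changed in 1 of 12 members. EGLN3, a prolyl hydroxylase that is itself a HIF target, was 28.2, 51.8, 34.9 and 30.9 CPM in WT and 43.2, 81.8, 44.01 and 41.8 in cIDR (0.51 ± 0.093, adjusted p 0.0195), a call lost without 6 of the 8 libraries in turn (up to 0.133) and without batches 2, 3 or 4 (up to 0.125), and WT batch 2 overlapped the cIDR range. HIF1A measured -0.13 ± 0.11, lower in 4 of 4 batches without passing the test, and the partner gene ARNT -0.0048 ± 0.061, a value whose sign turned without batch 3 (0.051). HIF1A-AS3, an antisense RNA of the HIF1A locus, had 0, 1.77, 0 and 0 CPM in WT and 1.41, 5.19, 1.45 and 1.69 in cIDR (adjusted p 0.0403). With 3 WT libraries at 0 its fitted fold depends on the prior count, its call was lost without 6 of 8 libraries in turn (up to 0.158), and whether counting used strand is not stated. Among 17 histone demethylases of the Jumonji family, oxygen-dependent enzymes that remove histone methyl groups, KDM3A alone passed. Its level was 19.3, 27.6, 22.1 and 22.2 CPM in WT and 23.5, 39.9, 30.6 and 29.8 in cIDR (0.43 ± 0.054, adjusted p 0.00106), with a list median of 0.0040. It was called without each library and lost without batch 2 or batch 3 (up to 0.0736), and limma on TPM did not call it (0.290 to 0.345).

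Genes of catecholamine production rose in 3 of 12 cases (median 0.058). They were the biosynthetic enzymes at both ends of the noradrenaline pathway and a vesicle transporter. TH, tyrosine hydroxylase, which catalyses the rate-limiting step, was 0.9602, 5.68, 1.35 and 0.856 CPM in WT and 3.14, 10.1, 2.05 and 2.03 in cIDR (1.06 ± 0.17, adjusted p 0.00953). DBH, which makes noradrenaline from dopamine, was 311, 495, 327 and 293 CPM in WT and 515, 695, 405 and 421 in cIDR (0.51 ± 0.066, adjusted p 0.00131). SLC18A1, the vesicular monoamine transporter of chromaffin cells, was 59.3, 109, 72.6 and 69.3 CPM in WT and 113, 174, 107 and 108 in cIDR (0.70 ± 0.078, adjusted p 0.000507). In every batch these genes were higher in cIDR, and DBH and SLC18A1 were called without each library and without each batch. TH was lost without WT replicate 1 (0.0539) and without batches 1, 2 or 4 (up to 0.102). DDC, the enzyme between TH and DBH, measured 0.21 ± 0.046 (adjusted p 0.0675), higher in 4 of 4 batches. PNMT, which makes adrenaline, measured -0.53 ± 0.66 and the granule genes CHGA and CHGB 0.023 ± 0.069 and 0.032 ± 0.055. Of 15 adrenergic neuroblastoma transcription factors and 11 mesenchymal markers none passed, with medians of -0.013 and 0.055, and MYCN measured 0.016 ± 0.047, a sign that turned with TPM values (-0.048). The summed level of sympathoadrenal markers, given above, overlapped between the groups.

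Other called genes were grouped after their values were seen. CRH, corticotropin-releasing hormone, was 38.4, 73.9, 33.2 and 27.6 CPM in WT and 130.4, 135, 93.2 and 85.7 in cIDR with no overlap (1.45 ± 0.16, adjusted p 0.000507). CARTPT, which encodes the CART neuropeptide, was 0.0209, 3.85, 0.0724 and 0 CPM in WT and 8.99, 21.8, 1.95 and 1.76 in cIDR (adjusted p 0.003401). Its fitted log2 fold change of 4.05 ± 0.58 depends on the prior count and was 6.78 without WT replicate 2 and 6.90 without batch 2, since WT batches 1, 3 and 4 held 3 counts or fewer, and its call was lost without batch 3 (0.0643). CSH2, a placental lactogen gene, was 10.2, 7.02, 9.26 and 14.1 CPM in WT and 22.6, 12.4, 33.9 and 36.4 in cIDR (1.30 ± 0.16, adjusted p 0.000984), and it is uncertain because reads of the near-identical growth hormone family can be shared. INHA (inhibin α), IGF2, NMB (neuromedin B), FGF11, TGFB1 and DLK1, a Notch-related protein of immature chromaffin cells, rose by 0.41 to 0.98. INHA and IGF2 were called without each library, INHA lost without batches 2 or 3 (up to 0.0732) and IGF2 without batches 1, 3 or 4 (up to 0.105). NMB was lost without each of the 8 libraries in turn, TGFB1 and DLK1 without 7 and FGF11 without 6 (up to 0.211, 0.277, 0.211 and 0.173). Limma on TPM called INHA but not IGF2 (adjusted p 0.243 to 0.269), NMB, TGFB1, DLK1 or FGF11. IGF2 and DLK1 were abundant, at 1854 to 6436 and 1441 to 2911 CPM in WT against 2696 to 9585 and 1874 to 4147 CPM in cIDR. RTL1, which lies in the same imprinted region as DLK1, was 37.01, 110.4, 23.7 and 21.4 CPM in WT and 65.7, 166, 47.2 and 37.3 in cIDR (0.79 ± 0.099, adjusted p 0.001004).

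RGS4, a regulator of G-protein signalling, was 305, 585, 268 and 261 CPM in WT and 627, 1126, 511 and 484 in cIDR (0.95 ± 0.10, adjusted p 0.0004604). In each batch the cIDR library was higher, but WT batch 2 lay above the cIDR libraries of batches 3 and 4. PDE4C, a cAMP phosphodiesterase, was 2.19, 16.4, 2.22 and 2.26 CPM in WT and 8.07, 35.3, 6.06 and 6.16 in cIDR (1.46 ± 0.19, adjusted p 0.00106). TNIP1, an inhibitor of NF-κB signalling, was 45.4, 74.3, 45.5 and 42.6 CPM in WT and 73.2, 119.9, 62.7 and 64.7 in cIDR (0.61 ± 0.059, adjusted p 0.000161), and was the member that passed of 11 genes of NF-κB feedback (median 0.052). Both overlapped between the groups through WT batch 2. TRIM29, a tripartite motif protein, was among the 5 largest rises of genes with a mean of at least 1 CPM: 1.32, 19.1, 2.24 and 1.32 CPM in WT and 34.5, 71.8, 26.2 and 27.7 in cIDR, with no overlap (3.27 ± 0.36, adjusted p 0.000507). Its log2 fold change was 4.10 without WT replicate 2 and 4.18 without batch 2. The Wilms tumour factor gene, WT1 (unrelated to the group name), was 7.47, 10.8, 6.15 and 5.47 CPM in WT and 12.6, 18.6, 9.77 and 9.66 in cIDR (0.76 ± 0.098, adjusted p 0.001204), and its antisense gene WT1-AS was called with all libraries, at 0.703 to 3.39 CPM in WT and 1.91 to 5.67 CPM in cIDR, which cannot be read as separate where strand use is unstated. The call of WT1-AS was lost without 6 of the 8 libraries in turn (up to 0.0816), without each of the 4 batches (up to 0.187) and with 1 of the 2 TPM fits. RGS4, TRIM29, PDE4C, TNIP1 and WT1 were called without each library and without each batch, but limma on TPM did not call RGS4 (adjusted p 0.0710 to 0.0721) or WT1 (0.290 to 0.345).

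Further rises with small p-values were those of AQP10, an aquaglyceroporin, at 8.47, 7.65, 5.52 and 5.36 CPM in WT and 16.6, 12.3, 11.9 and 11.5 in cIDR (0.96 ± 0.11, adjusted p 0.000712), and of EGFL7, a secreted protein best known from endothelium, at 2.13, 14.5, 1.81 and 1.47 and 14.1, 36.5, 5.73 and 6.28 CPM (1.89 ± 0.23, adjusted p 0.000984). AQP10 did not overlap between the groups and EGFL7 did, through WT batch 2. The endothelial marker gene VWF rose as well (1.65 ± 0.34, adjusted p 0.0439), at 0.104, 0.763, 0.0965 and 0.132 CPM in WT and 0.4601, 1.29, 0.706 and 0.361 in cIDR, a call lost without 7 of the 8 libraries in turn (up to 0.214). The endothelial marker CDH5, at 0.0209, 0.391, 0.0724 and 0.0439 CPM in WT and 0.108, 0.863, 0.145 and 0.181 in cIDR, was higher in 4 of 4 batches too and was not called (1.32 ± 0.51). The markers PECAM1 and CLDN5 were at 0 to 0.112 CPM in all 8 libraries, TEK and EMCN were at 0, and the part of endothelial cells in these values was not tested. The solute carrier genes SLC29A4, SLC12A3 and SLC6A19 rose by 0.47 to 1.99 and the calcium-binding protein gene CABP7 by 1.49. SLC6A19 was lost without each of the 8 libraries in turn (up to 0.198). The other 3 were called without each library, but SLC29A4 was lost without batches 2 or 3 (up to 0.214), SLC12A3 without batches 1 or 3 (up to 0.0887) and CABP7 without batches 1, 3 or 4 (up to 0.0913). Limma on TPM called CABP7 but not SLC29A4 (adjusted p 0.623 to 0.624), SLC12A3 (0.104 to 0.345) or SLC6A19 (0.290 to 0.747). With single libraries left out the log2 fold change of CABP7 ranged from 1.35 to 2.08. LINC02348 rose by 0.97 ± 0.11 and C8orf58 by 1.18 ± 0.14, both called without each library and batch.

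Some called genes had little or no signal in WT or an uncertain identity. ENSG00000287521, without a symbol, had 0 counts in all 4 WT libraries and 1.001, 1.14, 2.55 and 2.303 CPM in cIDR (adjusted p 1.11e-05). Set against a floor of 3 counts per library it was at least 27.3-fold higher, and it was the gene still called without the batch term. Whether its counts are separate from reads of the transfected EPAS1 was not tested. ENSG00000275993 was 12.3, 13.2, 13.2 and 14.97 CPM in WT and 19.8, 25.4, 20.6 and 20.9 in cIDR (0.69 ± 0.084), and GENCODE 29 names it SIK1B, a copy of SIK1. ICOSLG and its near-copy ENSG00000277117 were both called, at 0 to 0.316 and 0 to 0.0558 CPM in WT and 0.374 to 3.03 and 0.0903 to 1.32 CPM in cIDR, and reads may be shared between them. ICOSLG was lost without 7 of the 8 libraries in turn (adjusted p up to 0.295) and ENSG00000277117 without all 8 (up to 0.412). CD5, MYO3B, LINC02207, RSPH9, NEDD9 and IL10RA were at 0 to 0.521 CPM in WT and at 0.106 to 2.31 CPM in cIDR, all of them weakly expressed. LINC02207 was lost without each of the 8 libraries in turn, CD5 and IL10RA without 7, RSPH9 without 6, and MYO3B and NEDD9 without 1 (up to 0.197, 0.198, 0.189, 0.140, 0.0840 and 0.0546). Each was also lost without 2 to 4 of the batches and with at least 1 TPM fit.

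The 6 genes that fell had no common list. PPP2R2B, a brain-type regulatory subunit of protein phosphatase 2A, was 205, 215, 291 and 354 CPM in WT and 99.3, 66.8, 167 and 160.2 in cIDR, with every cIDR library below every WT library (-1.17 ± 0.14, adjusted p 0.000908). It was called without each library and without each batch. DNM1P41, a dynamin pseudogene, fell from 2.65, 3.59, 3.93 and 3.73 to 0.866, 1.07, 2.08 and 1.67 CPM (-1.34 ± 0.21, adjusted p 0.00778), and IGKV2-30, an immunoglobulin κ segment with a near-identical copy, from 3.63, 3.798, 4.005 and 5.07 to 1.41, 0.739, 2.76 and 3.09 CPM (-1.19 ± 0.24, adjusted p 0.0413). DNM1P41 and IGKV2-30 are uncertain because reads can be shared with similar sequences. The ceramide synthase gene CERS1 (-0.36 ± 0.071) and the glutaredoxin gene GLRX (-0.35 ± 0.071) changed least. CERS1 was lost without each of the 8 libraries in turn (adjusted p 0.0684 to 0.183), GLRX and IGKV2-30 without 7 of 8 (up to 0.220 and 0.218), and DNM1P41 without none (at most 0.0464). With a whole batch left out, DNM1P41 was lost for batches 1, 2 and 4 (up to 0.0736), and CERS1, GLRX and IGKV2-30 for all 4.

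Many programmes had no member that passed the test. None of the tested genes of iron handling (9), the circadian clock (12), amino acid stress under ATF4 (16), ER chaperones and the unfolded protein response (12), proliferation (20), interferon response (12) or immediate early factors (14) was called, with medians of 0.061, -0.018, 0.065, 0.085, 0.020, 0.044 and 0.029. The members with the smallest p of these lists were HMOX1 at 0.47 ± 0.12, NR1D2 at -0.12 ± 0.085, CEBPB at -0.16 ± 0.088, HSPA5 at 0.12 ± 0.049, CCNE1 at 0.23 ± 0.076, ISG15 at 0.28 ± 0.16 and NR4A1 at 0.21 ± 0.069, all with an edgeR adjusted p of 0.228 or more. The 13 transcripts of the mitochondrial genome had a median of 0.19 with none called. MT-ND5 was 2049.6, 2459, 2422 and 2685 CPM in WT and 2752, 2747, 3429 and 2877 in cIDR, with no overlap and an SE of 0.31 on a log2 difference of 0.29. Mitochondrial transcripts took 6.20 to 8.83% of counts in WT and 7.03 to 9.61% in cIDR. Simulated data had the means and depths of these libraries, with changes placed only in genes above a minimum mean count. Of genes changed by 0.5 on the log2 scale 68% were recovered in this comparison, and 92% of those changed by 1. Changes under 0.5 were thus often not detectable, and these shares do not cover weakly expressed genes.

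The constructs were then compared directly, which does not use the WT libraries as a baseline. The log2 difference in EPAS1 was 0.78 ± 0.30 for cIDR minus FL and 0.69 ± 0.30 for cIDR minus NCTAD (edgeR adjusted p of 1.00 for both), and how much of the differences that follow goes with that level was not tested. Against FL, 6 genes were called (0.0307% of tested genes; 717 had an unadjusted p under 0.05), and all were higher in cIDR: PFKP by 0.73 ± 0.084 (adjusted p 0.00762), PDE4C by 1.29 ± 0.18 (0.0281), KDM3A by 0.39 ± 0.054 (0.0281), TNIP1 by 0.40 ± 0.059 (0.0281), AK4 by 1.39 ± 0.21 (0.0281) and CSH2 by 1.06 ± 0.16 (0.0293). Against NCTAD, 1 gene was called (0.00512%; 418 had an unadjusted p under 0.05), again PFKP, by 0.74 ± 0.084 (adjusted p 0.00609). These calls were not firm. PFKP against FL was lost without FL replicate 3 (0.0629), and PFKP against NCTAD was lost without NCTAD replicate 1 or NCTAD replicate 2 (up to 0.0652). PDE4C, AK4, CSH2, KDM3A and TNIP1 against FL were called without 3, 2, 2, 1 and 0 of the 8 libraries in turn (adjusted p up to 0.266), and limma on TPM called none of the 6.

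The 3 constructs' own differences from WT share the 4 WT libraries, so they are given side by side for genes chosen after their values were seen. For PFKP the log2 fold change from WT was 0.89 ± 0.085 in cIDR, 0.16 ± 0.086 in FL and 0.15 ± 0.086 in NCTAD. For AK4 it was 1.73 ± 0.21, 0.33 ± 0.21 and 0.90 ± 0.21, and for PDE4C 1.46 ± 0.19, 0.16 ± 0.19 and 0.52 ± 0.19. NDUFA4L2 had 3.13 ± 0.51, 0.43 ± 0.52 and 0.84 ± 0.52. Its difference of cIDR from FL, 2.70 ± 0.49, was not called (adjusted p 0.179). In these genes the cIDR value was the highest of the 3. In other genes NCTAD and cIDR lay close together. VEGFA had 0.89 ± 0.11, 0.47 ± 0.11 and 1.05 ± 0.11, RGS4 0.95 ± 0.10, 0.55 ± 0.10 and 0.98 ± 0.10, and CRH 1.45 ± 0.16, 0.72 ± 0.16 and 1.57 ± 0.16. For the fallen PPP2R2B the values were -1.17 ± 0.14, -1.41 ± 0.14 and -1.12 ± 0.14. In further risen genes the cIDR value was the lowest of the 3. C2CD4A had 1.35 ± 0.26, 1.98 ± 0.26 and 2.69 ± 0.26, ELFN1 2.13 ± 0.36, 2.40 ± 0.35 and 3.18 ± 0.35, and SLC12A3 1.50 ± 0.22, 1.85 ± 0.22 and 1.92 ± 0.22. The call of C2CD4A for cIDR against WT was lost without each of the 8 libraries in turn (edgeR adjusted p up to 0.217). That of ELFN1 was lost without WT replicate 4 or cIDR replicate 3 (up to 0.0580). Both were lost without batches 1, 3 or 4 (up to 0.267 and 0.0972), and limma on TPM called neither. Neither cIDR minus FL nor cIDR minus NCTAD passed the test for VEGFA, RGS4, CRH, PPP2R2B, C2CD4A, ELFN1 or SLC12A3, which does not show that the constructs act alike on them. The difference between NCTAD and FL was not tested.

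**Figure D3:**
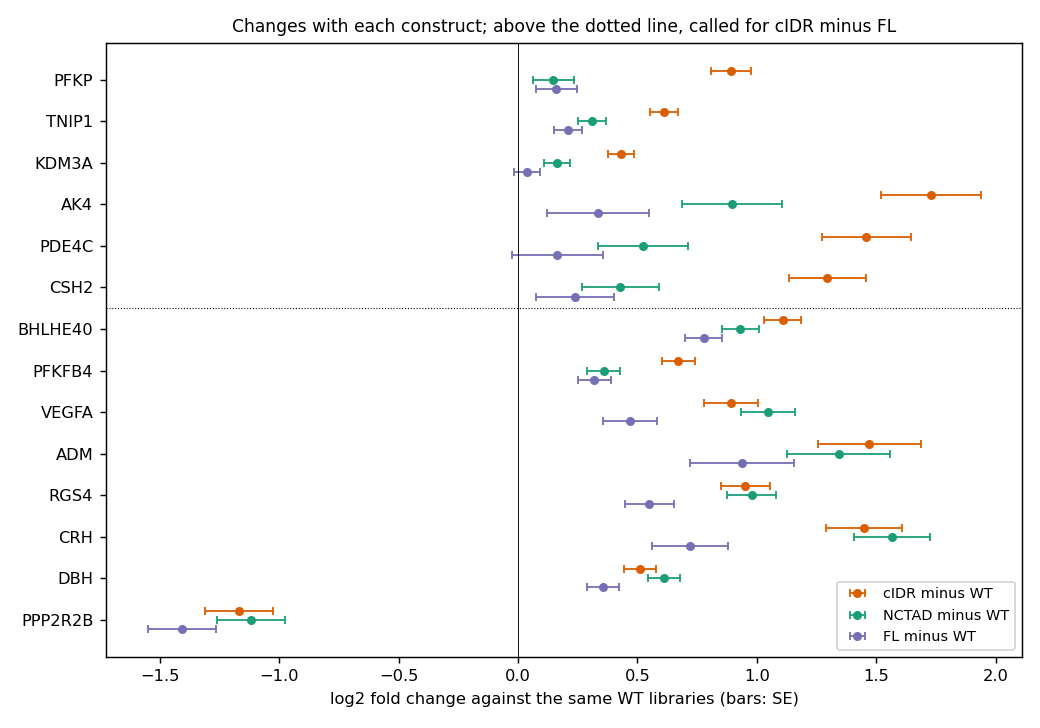
Log2 fold change from the same 4 WT libraries (x axis, bars are SE) for cIDR, NCTAD and FL in 14 genes (y axis). The 6 genes called for cIDR minus FL lie above the dotted line, where the cIDR point is the highest of the 3 in each gene, while PPP2R2B lies below 0 with all constructs.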

How the data were processed

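Per the labels, stranded poly(A) libraries took an input of 250 ng RNA and 13 cycles of PCR. The submitters' processing notes name fastp, STAR, Salmon, featureCounts and GRCh38, with no versions and no roles. The deposited estimated counts per gene (63187 genes) are not scaled to depth or length, and 15.5% of them were not whole. The deposited TPM values are the authors' scaling of the same libraries to transcript length and depth. The 8 libraries compared held 38.6 to 55.3 M (mega) estimated counts, and floors cover counting error only. The SE values also take in the spread between libraries.

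Counts were rounded and filtered with filterByExpr by group. Tests were quasi-likelihood F tests (edgeR 4.0.16, R 4.3.3, TMM) in 1 model over all 16 libraries with group and batch, at an adjusted p under 0.05. A log2 fold change is given with its SE, and CPM use TMM-scaled totals. The batch term was used because the labels give replicate numbers as batches. Deviations from the group mean correlated with a mean r of 0.317 between WT and cIDR libraries of the same number (0.156 to 0.712) and -0.0934 otherwise. The biological coefficient of variation was 0.108, and 0.245 without the term. No 2 replicates were copies (chi-square per degree of freedom at least 7.24). The script was tested on simulated data for 19530 genes, with 11 false calls.

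The comparison, the batch term and the gene lists were chosen with earlier results of these data known. Named genes with per-library values are the 20 risen genes with a symbol and smallest adjusted p, the 5 largest rises at a mean of at least 1 CPM, fallen genes, called list members, the member with the smallest p of lists with none, HIF1A, ARNT, MYCN and genes called between constructs. Further genes in the text were picked after their values were seen, and some results for single genes are not reported here. Alternatives were the model without the batch, the 8 libraries alone, RLE size factors, DESeq2 1.42.0 with batch, no filter, at least 10 counts in every library, limma 3.58.1 on log2(TPM + 1) and log2(TPM + 0.1), an absolute log2 fold change of at least 1, and each library or batch left out. Promoter sequences are RefSeq's (GRCh38.p14). Figures used matplotlib 3.10.9.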

Additional observations from a re-analysis of the deposited data

Results flagged for a closer look

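Within a batch, the difference of cIDR from WT stood apart from the other 3 batches for 6 of 69 named genes (a gap above Dixon's critical value for 4 samples, which chance exceeds in about 1 of 20 groups). On the log2 scale BHLHE40 was lower in batch 3, at 1.03 against 1.12 to 1.14, and STC1 was higher in batch 1, at 1.202 against 0.79 to 0.84. ALDOC was lower in batch 3, at 0.22 against 0.54 to 0.60. ANGPTL4 was higher in batch 1, at 3.92 against 1.485 to 1.497. HIF1A-AS3 was lower in batch 2, at 1.53 against 5.10 to 5.36, where its WT library of batch 2 held 1.77 CPM and the other 3 WT libraries 0. ARNT was lower in batch 3, at -0.18 against 0.044 to 0.067.

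By level, the WT library of batch 2 stood apart from the other WT libraries for 20 of the 69 named genes, and the cIDR library of batch 2 from the other cIDR libraries for 17. The counts for the other libraries were 1 for WT batch 1 and 0 for the remaining 5.

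Between constructs, the difference of cIDR from FL passed the edgeR test for PFKP (0.73 on the log2 scale), TNIP1 (0.40), AK4 (1.39), CSH2 (1.06), KDM3A (0.39) and PDE4C (1.29), and that of cIDR from NCTAD for PFKP (0.74).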

How the results depend on the processing

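The 94 calls of cIDR against WT (88 higher, 6 lower) rested on the replicate block. Without the replicate block 1 gene was called (1 higher, 0 lower), and the calls against FL and NCTAD fell from 6 and 1 to 0 and 0, with unadjusted p under 0.05 in 267 genes for cIDR against WT. DESeq2 with batch gave 154 calls (134 and 20) for WT, 45 for FL and 19 for NCTAD. No low-count filter gave 144 (127 and 17), the 8 libraries alone 107 (96 and 11), and an absolute log2 fold change of at least 1 gave 41 (37 and 4). Limma on log2(TPM + 1) gave 48 (37 and 11) and on log2(TPM + 0.1) 46 (37 and 9), with 0 for FL and NCTAD in both. With TPM the median log2 fold change of all tested genes was -0.053 and -0.068, against 0.0079 by edgeR. Leaving out 1 library gave 48 to 71 calls for WT (45 to 65 higher, 3 to 6 lower), 0 to 8 for FL and 0 to 2 for NCTAD. Fewest were left without WT replicate 1, FL replicate 3 and NCTAD replicate 1. Without batch 1, 2, 3 or 4 there were 48, 45, 35 and 48 calls (44, 43, 32 and 46 higher, 4, 2, 3 and 2 lower), with 1, 9, 0 and 0 for FL and 1, 0, 0 and 0 for NCTAD. Each setting that leaves out libraries tests fewer of them. The cause of the other shifts was not tested. Each of the 94 genes kept its direction in every setting that gave it a value. MYCN, not called, turned to -0.048 with both TPM fits, to -0.0068 without batch 2, and to -0.0014 and -0.0013 without WT replicate 4 and cIDR replicate 2, in a range of up to 0.035 over single libraries left out. ARNT, not called, turned to between 0.0015 and 0.030 without WT replicate 1, WT replicate 3 or cIDR replicate 3 (lowest over single libraries left out -0.043), and to 0.051 without batch 3. Changes under 0.5 on the log2 scale were often missed at this depth and number of libraries, and genes under 1 CPM rest on few counts.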
